A study of Mus musculus with 83 samples.

Results

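The colon of mice aged 15 months was compared with the colon of mice aged 9 months, which are both ages of adult midlife. RNA-seq counts were taken from 32 of the 83 mice of the series, 16 at 9 months and 16 at 15 months, chosen by the age in their labels. All were male C57BL/6J/Ukj mice kept only to age, under controlled conditions and without treatment, and each mouse was sampled once, so that the ages are different sets of animals. PolyA RNA of colon tissue was sequenced in 3 library preparation batches, which held 6, 5 and 5 mice of 9 months and 5, 7 and 4 mice of 15 months. Mice of 3 months (16), 24 months (17) and 28 months (18) entered the same statistical model and serve here only to place the interval from 9 to 15 months. Between 25983591 and 56630493 read pairs were counted on genes per mouse at 9 months, and between 30201621 and 52924608 at 15 months.

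The colon is lined by a single epithelial layer that stem cells at the base of the crypts renew every few days into absorptive colonocytes, mucus-secreting goblet cells, hormone-secreting enteroendocrine cells and tuft cells. Below it lie the lamina propria with its IgA-secreting plasma cells, and a smooth muscle wall with enteric neurons and glia. Genes that direct the embryo or other organs are kept silent in adult colon cells, many of them under Polycomb repression at promoters rich in CpG dinucleotides, and such promoters are among those known to gain DNA methylation with age.

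The markers of colon tissue were present in every mouse. Summed over the list, goblet cell markers held 21940 to 51945 CPM, the count of a gene relative to the TMM-normalized library size of its mouse, and colonocyte markers 8966 to 15234, and 2 of 12 markers of exocrine pancreas passed the filter on low counts. Several mice stood apart from their age group. Replicates 4, 6 and 13 of 9 months had summed smooth muscle marker levels of 1403, 1757 and 2303 CPM, below the 4098 CPM or more of the other 13 and the 3604 CPM or more of all mice of 15 months. Replicate 16 of 15 months was lowest in goblet cell markers, with 21940 CPM, and in blood endothelium, with 120 CPM. Replicates 1 and 15 of 15 months had summed plasma cell marker levels of 20346 and 21836 CPM, against 10998 CPM or less in the other 30 mice. Because the tissue was sequenced in bulk, fewer cells of a type and less RNA per cell cannot be told apart. The labels do not say whether the mice shared litters or cages, so the p-values measure the spread between these mice.

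Of 18325 genes tested, 79 (0.431%) differed between 9 and 15 months at an adjusted p-value below 0.1 (edgeR quasi-likelihood test, Benjamini-Hochberg adjustment over all genes tested). The level was higher at 15 months for 46 genes (0.251%) and lower for 33 (0.18%), and 63 of the 79 are protein-coding. Most of the changes were small. On the log2 scale 46 of the 79 were under 0.5 in size, 17 passed 2-fold, with 13 of these higher and 4 lower, and the median size was 0.45. All 79 had the same direction within each of the 3 library batches. They were called on these same mice, and no such count over all tested genes stands beside it, so this is a description. Within a batch a change could be near 0, such as -0.02 for Frem1 and 0.02 for Ighv13-2 in batch 3. Without the adjustment 1683 genes had a p-value below 0.05. The count depended on single mice. Leaving out 1 mouse at a time gave between 51 and 136 called genes, and 39 of the 79 were called in all 32 of these fits. Without the 4 mice that stood apart in smooth muscle, goblet or endothelial markers 57 genes were called, and without the 2 mice with the most plasma cell marker RNA 39.

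A gene that fails this test may still have changed, so genes were also asked to stay level. A gene was counted as level where the whole 95% interval of its log2 change lay within 0.5 of 0. By this measure 15883 of the 18325 genes (86.7%) were level, and 10796 (58.9%) were level within 0.25. The share followed abundance, at 97.9% of the 10224 genes with a mean of at least 10 CPM and 50.2% of the 3411 genes with a mean below 1 CPM, where the intervals were often wider than the limit. Another 15 genes were so near to no change that no error could be computed, and these were not counted as level. Both measures can hold for one gene, and 22 of the 79 called genes were level by the limit of 0.5.

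**Figure D1:**
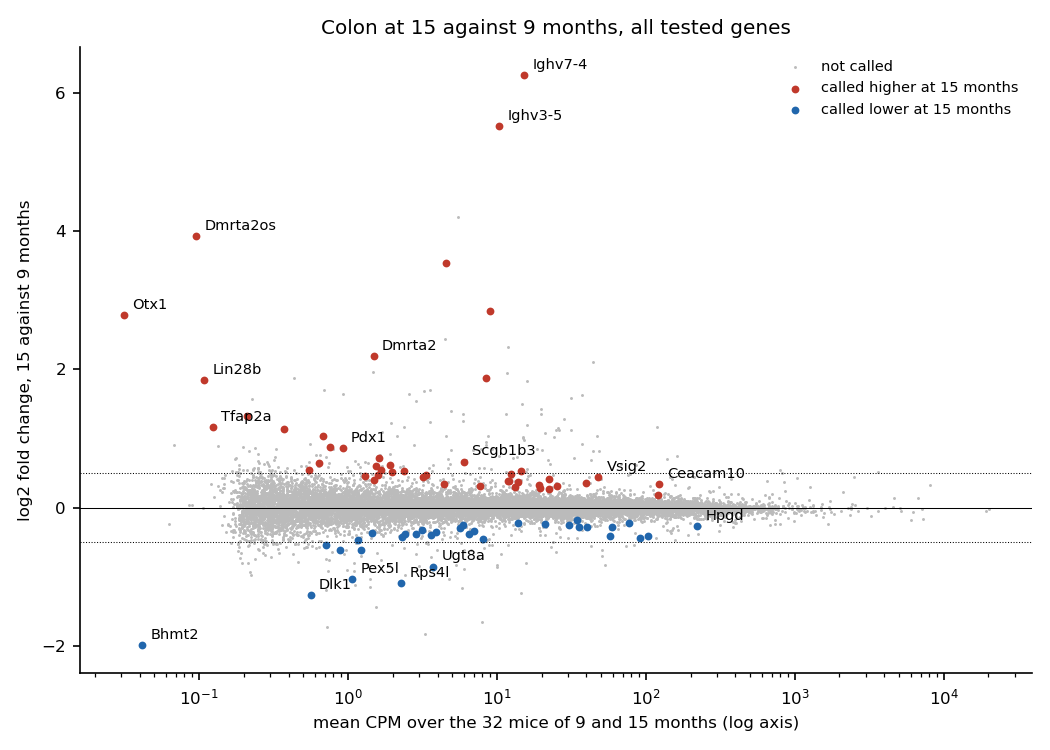
Log2 change from 9 to 15 months (vertical axis) against mean level in CPM over the 32 mice (horizontal log axis), 1 point for each of 18325 genes, with the 79 called genes coloured and dotted lines at the limits of 0.5. The cloud is flat around 0 above 10 CPM, and the changes beyond 2-fold lie mostly at low levels.

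The smallest adjusted p-values belonged to both transcripts of one locus. Dmrta2, a DM-domain transcription factor of embryonic forebrain development, lies on the plus strand at chr4:109978053-109983687 (GRCm38), and its antisense transcript Dmrta2os lies on the minus strand at chr4:109976738-109977813. In the gene annotation used for names, GENCODE M21, the starts of both are 240 bases apart and point away from each other. The 250 bases before the RefSeq start of Dmrta2 (GRCm38.p6, chr4:109977775-109978024, plus strand) are shown because this stretch lies before Dmrta2 and holds most of the gap between these starts. CG dinucleotides are in capitals, and the first bases of the stretch overlap Dmrta2os in GENCODE M21. RefSeq places the start of Dmrta2os within Dmrta2 instead, next to chr4:109979611-109979860, so the start of the antisense transcript differs between annotations.

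Dmrta2: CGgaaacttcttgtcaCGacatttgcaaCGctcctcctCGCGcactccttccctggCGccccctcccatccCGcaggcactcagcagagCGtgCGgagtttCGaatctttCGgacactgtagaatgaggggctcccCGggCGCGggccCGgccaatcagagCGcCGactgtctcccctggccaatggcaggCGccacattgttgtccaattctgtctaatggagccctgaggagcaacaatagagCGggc

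The stretch holds 19 CG dinucleotides (motif CG, read on the plus strand, which gives the same count on the other strand). Among the 12724 tested genes with an entry in the promoter table the median was 14, and 67.0% had 10 or more. The called genes as a whole were not richer, with a median of 10 for the 29 of 46 higher genes and 10.5 for the 24 of 33 lower genes that had an entry, and 51.7% and 54.2% with 10 or more. These are counts of letters, and DNA methylation was not analysed here.

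The level of Dmrta2 was 0.232 CPM in the lowest, 0.537 CPM in the median and 0.814 CPM in the highest mouse of 9 months, and 1.51, 2.44 and 3.70 CPM at 15 months. All 16 mice of 15 months lay above all 16 of 9 months, and Dmrta2 was the only called gene whose age groups did not overlap. Overlap was looked at only in the called genes, so no share over all tested genes stands beside this. The change was 4.57-fold (log2 2.19 ± 0.13 SE, n = 16 and 16 mice, adjusted p = 1.64e-23 by edgeR), with 2.32, 2.32 and 1.92 on the log2 scale within the 3 batches. Dmrta2os had no count in 12 of 16 mice at 9 months, with 5 read pairs in all mice together, and was counted in all 16 mice at 15 months, with 105 read pairs. The ratio of the pooled depth-scaled counts was 21.03, with an exact 95% interval of 8.73 to 66.1 that covers counting error only. Reads were counted by strand, so both transcripts are separate measurements. Median levels of Dmrta2 over the 5 ages were 0.273, 0.537, 2.44, 10.1 and 12.2 CPM, and those of Dmrta2os were 0 CPM at 3 and 9 months, 0.198 CPM at 15 months, and 0.820 and 0.979 CPM later.

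Further regulators of embryonic development or of other organs were among the 46 higher genes. Together with the pair at Dmrta2 they were 9, with log2 changes from 0.39 to 3.93, a group made after the called genes were seen, with no count of such regulators over all tested genes beside it, and given as a description only. Regulators of this kind were also among the lower genes, such as Dlk1, described further on, and Lmo4, a LIM-domain transcription cofactor (log2 -0.18). Otx1, a homeobox factor of the forebrain and sense organs, had no count in 13 of 16 mice at 9 months (3 read pairs in all) and in 3 of 16 at 15 months (32 read pairs), a ratio of 10.7 with a counting interval of 3.34 to 54.5. The groups overlapped at 0, and at this depth a level of Otx1 in a single mouse rests on a few read pairs. The median of Otx1 was 0.0459 CPM at 15 months, 0.519 CPM at 24 months and 0.922 CPM at 28 months.

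Lin28b encodes an RNA-binding protein of embryonic and fetal cells that blocks the maturation of let-7 microRNAs. It had 26 read pairs at 9 months and 98 at 15 months (ratio 3.77, counting interval 2.43 to 6.06), with a median of 0.0361 against 0.199 CPM, and 12 of 16 mice of 15 months lay above all mice of 9 months. Pdx1, the homeobox factor of pancreas and duodenum, ranged from 0.315 to 0.848 CPM (median 0.668) at 9 months and from 0.622 to 1.86 CPM (median 1.18) at 15 months, with 14 of 16 mice above all younger ones (log2 0.86 ± 0.16 SE, adjusted p = 0.00156 by edgeR). Gata3, a zinc finger factor of T cells, innate lymphoid cells and several embryonic organs, had medians of 1.44 and 1.80 CPM and overlapping ranges of 0.811 to 1.76 and 1.11 to 3.68 CPM. Its call (adjusted p = 0.0361) was lost when the 2 mice with the most plasma cell marker RNA were left out.

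Tfap2a, Msx1 and Pou4f1 are the remaining factors and were singled out after their values were seen. Tfap2a, an AP-2 factor of neural crest and skin, had 42 and 97 read pairs (ratio 2.31, counting interval 1.59 to 3.41). Msx1, a homeobox factor of limb and tooth, changed by 0.55 on the log2 scale (adjusted p = 0.0548) and Pou4f1, a factor of sensory neurons, by 0.39 (adjusted p = 0.0474), from medians of 0.404 and 1.28 CPM to 0.656 and 1.79 CPM. In a separate list of 22 genes of DNA methylation, its removal and Polycomb complexes, all were level, with a median change of -0.0033 on the log2 scale. Dnmt1, the maintenance methyltransferase, had a log2 change of 0.01 (95% interval -0.11 to 0.13) and Ezh2, the Polycomb histone methyltransferase, one of -0.0070.

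**Figure D2:**
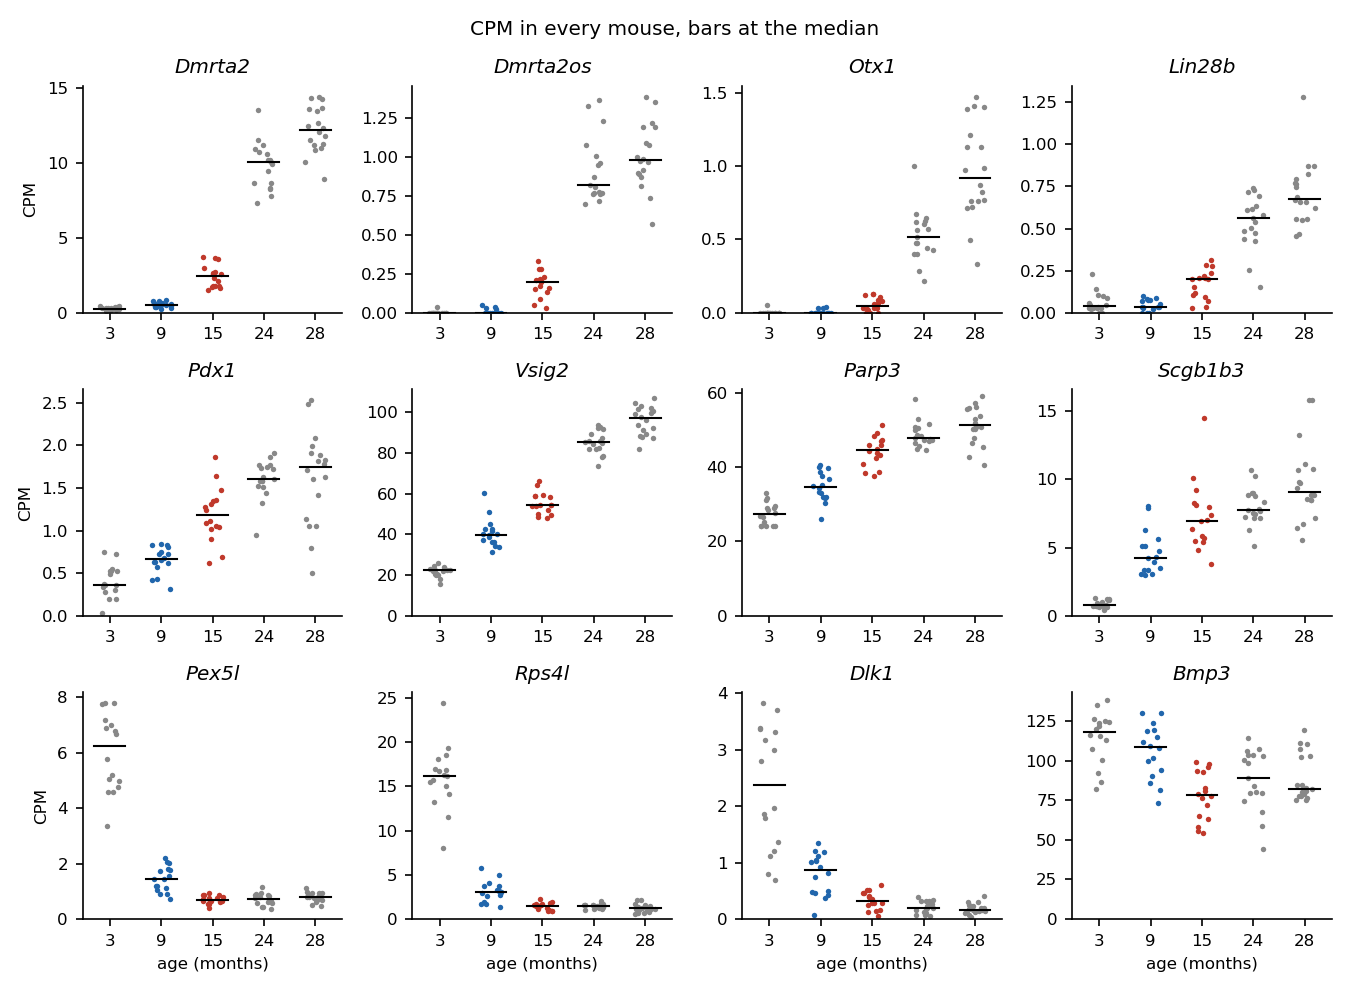
Level in CPM (vertical axes) of 12 genes in every mouse at 3, 9, 15, 24 and 28 months (horizontal axes), with 9 months in blue, 15 months in red and a bar at the median of each age. Dmrta2 is the panel whose blue and red points do not overlap, and the points of Pex5l and Rps4l fall from 3 to 15 months and then stay flat.

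Other called genes with a higher level at 15 months were of mixed roles. Vsig2, a membrane protein of the immunoglobulin superfamily found on mucosal epithelium, ranged from 31.3 to 60.1 CPM (median 39.8) at 9 months and from 47.9 to 66.0 CPM (median 54.4) at 15 months. All 16 older mice lay above the median of 9 months, yet only 2 lay above its highest mouse, and the change was 0.44 ± 0.06 SE on the log2 scale (adjusted p = 4.68e-08 by edgeR). Scgb1b3, a secretoglobin, rose by 0.67, from a median of 4.27 CPM (3.00 to 8.08) to 6.97 CPM (3.78 to 14.5), and its reads may be shared with near-identical family members. Ceacam10, an adhesion-family gene named after its values were seen, rose by 0.34, from a median of 106 to 132 CPM.

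Parp3, an ADP-ribosyltransferase of DNA break repair, moved further outside the range of the younger mice. Its level was 26.1 to 40.6 CPM (median 34.6) at 9 months and 37.5 to 51.4 CPM (median 44.7) at 15 months, and 13 of 16 older mice were above all younger ones. Kif26a, an atypical kinesin needed for the enteric nervous system, rose by 0.42 with medians of 19.6 and 26.2 CPM, and 11 of 16 older mice were above all younger ones. Cacna1s, the calcium channel subunit of skeletal muscle, rose by 0.61 at about 1 CPM. Dusp1, an immediate early phosphatase that switches off MAP kinases, rose by 0.31 (adjusted p = 0.0712) from a median of 22.8 to 26.0 CPM. It was the only one of 20 immediate early genes called, with 18 of the 20 level.

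The remaining higher genes included 9 pseudogenes, non-coding transcripts and genes known only by model names. Rpl19-ps3, a ribosomal protein pseudogene, rose by 0.88 from a median of 0.545 to 1.06 CPM, Gm11771 by 0.61 and the antisense transcript 0610040F04Rik by 0.49, from a median of 10.6 to 13.999 CPM. C130026I21Rik rose by 0.71 (adjusted p = 0.0498). Levels of pseudogenes, of C130026I21Rik and of AC133103.1 and AC168977.1 on unplaced scaffolds are uncertain, since their reads can be split with near-identical copies.

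Of the 33 lower genes, 5 were pseudogenes or non-coding transcripts and 28 were protein-coding. Pex5l, a regulator of HCN channel trafficking in neurons, fell by 1.03 on the log2 scale (SE 0.14, adjusted p = 2.04e-07 by edgeR). Its level was 0.738 to 2.20 CPM (median 1.44) at 9 months and 0.416 to 0.936 CPM (median 0.689) at 15 months, with 9 of 16 older mice below all younger ones. Rps4l, annotated as a transcribed pseudogene of a ribosomal protein, fell by 1.09, from 1.40 to 5.79 CPM (median 3.05) to 0.874 to 2.31 CPM (median 1.47). For both, the older mice all lay below the younger median and the ranges overlapped.

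Dlk1, an imprinted Notch-like regulator of fetal growth and progenitor cells, fell by 1.27 (SE 0.26, adjusted p = 0.00477 by edgeR). The medians were 0.866 and 0.318 CPM, but the ranges of 0.0635 to 1.35 and 0.0583 to 0.602 CPM shared their lower end. Bhmt2, a homocysteine methyltransferase of the liver and kidney, went from 37 to 8 read pairs over all mice, and the ratio of 9 over 15 months was 4.62 with a counting interval of 2.12 to 11.5. Smaller decreases were those of Lipo3, a lipase-family gene (log2 -0.46, medians 9.10 and 7.19 CPM), Zfp37, a zinc finger gene (-0.39, medians 7.23 and 5.63 CPM), Tpbg, the trophoblast glycoprotein that dampens Wnt signalling (-0.35, medians 7.39 and 6.17 CPM), and Epb41l4a (-0.39). Zfp783 and 2310016G11Rik fell by 0.43 and 0.47.

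Several lower genes encode signals, transporters or enzymes of metabolism. Bmp3, a secreted BMP ligand, fell by 0.45 (SE 0.09, adjusted p = 0.00757 by edgeR), from 73.4 to 130 CPM (median 109) to 54.2 to 99.2 CPM (median 78.3). Trpm6, the channel for magnesium uptake in the colon, fell by 0.41 from a median of 63.6 to 49.7 CPM, and Slc6a20a, a transporter of proline and other imino acids, by 0.61 from 1.49 to 0.990 CPM. Ugt8a, which makes galactosylceramide, fell by 0.85 from a median of 4.77 to 2.49 CPM. Aldh7a1, which breaks down lysine and protects against aldehydes, fell by 0.23, with a median of 23.2 CPM at 9 months and 19.7 CPM at 15 months. Hpgd, the enzyme that inactivates prostaglandins, and Prss23, a secreted protease, were named after their values were seen, and fell by 0.27 and 0.41 from medians of 249 and 118 CPM to 195 and 89.1 CPM.

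Gcg, the precursor of glucagon-like peptides in enteroendocrine L cells, fell by 0.28 (adjusted p = 0.0726), from a median of 67.3 to 54.7 CPM. It was the only one of 9 enteroendocrine genes called, and all 9 were level within 0.5. Of these 9, 3 had an unadjusted p-value below 0.05, which were Gcg and the granule proteins Chga at -0.27 (95% interval -0.43 to -0.10) and Chgb at -0.18 (95% interval -0.32 to -0.03). Cacna1s, Dusp1, Gcg, Ugt8a and Trpm6 lost their call both without the 4 mice that stood apart and without the 2 mice with the most plasma cell marker RNA. Gm11771 lost it only in the first case, and Gata3, Slc6a20a and C130026I21Rik only in the second. Of the genes named after their values were seen, Lmo4, Pou4f1, Ptpro, Hpgd and AC168977.1 lost it in both cases. Msx1 lost it only in the first, and Ceacam10, Prss23 and AC133103.1 only in the second.

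Large fold changes also belonged to 5 variable segments of immunoglobulin genes, which plasma cells and B cells express one clone at a time. Ighv7-4, Ighv3-5, Ighv9-4, Ighv13-2 and Igkv17-121 were called higher, by 6.26, 5.52, 3.53, 2.85 and 1.87 on the log2 scale, out of 189 segments tested. In each of them the level rested on few mice. Ighv7-4 had medians of 0.106 and 0.277 CPM at 9 and 15 months, and 382 CPM in replicate 7 of 15 months, which held 78.6% of the summed level of all 32 mice. Ighv3-5 had medians of 0.162 and 0.897 CPM and 259 CPM in replicate 1 (78.0%). The top mouse held 63.8% for Ighv13-2 (replicate 15), 59.0% for Ighv9-4 (replicate 5) and 23.7% for Igkv17-121 (replicate 13). A different mouse of 15 months was highest for each segment, and Ighv3-5, Ighv13-2, Ighv9-4 and Igkv17-121 each lost their call when that mouse was left out, while Ighv7-4 kept it. None of the 5 was called with the replicate number as a block (adjusted p = 0.164 for Ighv7-4). None of the 189 segments was level, their median change was 0.37, and their summed level was 727 to 2456 CPM (median 1312) at 9 months and 785 to 6379 CPM (median 1592) at 15 months. Segments of near-identical sequence share reads, so single segments are uncertain.

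Plasma cell markers had higher values at 15 months too, without passing the test. None of 8 was called, 7 had an unadjusted p-value below 0.05, and their median change was 0.44 (the smallest adjusted p was 0.172, for Derl3). Igha, the constant region of IgA, had 2962 ± 976 CPM (SD, n = 16) at 9 months and 4297 ± 2833 CPM (SD, n = 16) at 15 months (log2 0.51, adjusted p = 0.370 by edgeR). The summed level of the 8 markers was 4067 to 10998 CPM (median 6256) at 9 months and 5040 to 21836 CPM (median 6727) at 15 months. Without the 2 mice with the highest sums the median change of the markers was 0.16, and that of the 11 constant region genes went from 0.44 to 0.19. Genes of protein folding in the endoplasmic reticulum, which secretory cells need, had a median change of 0.12 with 9 of 16 below an unadjusted p of 0.05, none called and 14 level. That median was 0.12 without the 2 mice as well. The part of plasma cell RNA in the other changes was not tested beyond leaving out these mice.

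**Figure D3:**
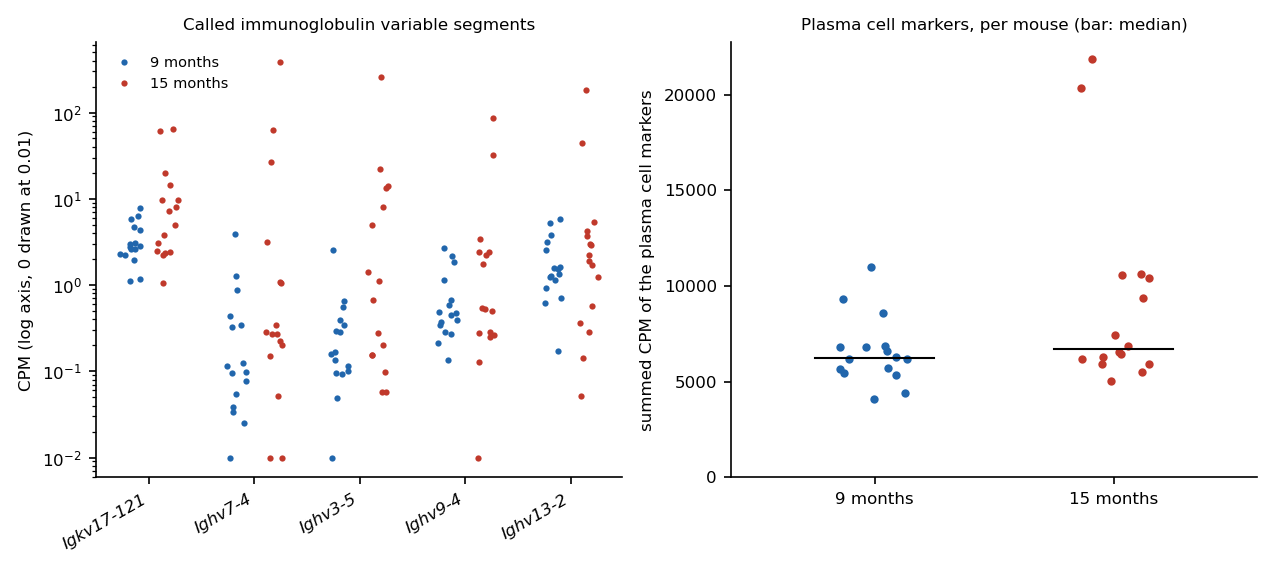
Level of the 5 called immunoglobulin segments in each mouse of 9 and 15 months (log axis in CPM, 0 drawn at 0.01), and the summed level of 8 plasma cell markers in CPM. Single mice of 15 months stand far above the rest in 4 segments, Igkv17-121 has a pair of high mice, and 2 mice, at 20346 and 21836 CPM, lie above the others in the marker sum.

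The neighbouring intervals gave more calls in the same model, with 1593 genes (8.69%) between 3 and 9 months and 2476 (13.5%) between 15 and 24 months. Median standard errors were close to each other, at 0.069, 0.070 and 0.068 on the log2 scale for the 3 steps in order of age. The median size of change over all tested genes was 0.07, 0.06 and 0.08, and the share of level genes was 84.0%, 86.7% and 83.8%. The steps share mice, so these values are set side by side and were not tested against each other as counts.

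Whether a gene changed by a different amount in 2 steps was tested gene by gene. The change from 9 to 15 months differed from that from 3 to 9 months for 114 genes (0.622%), of which 11 were among the 79 called genes, and from that from 15 to 24 months for 175 (0.955%), of which 14 were. The 79 were picked by a change that is part of these differences, so both counts are descriptions. Dmrta2 changed more in this step than before it, 2.19 against 0.95 (adjusted p of the difference = 0.0108), and by 2.01 afterwards, which did not differ detectably (adjusted p = 0.746). Dmrta2os changed by 3.93 and then by 2.32 (adjusted p of the difference = 0.0916). Tfap2a rose mainly later, by 1.17 and then 3.73 (adjusted p of the difference = 0.000212).

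Vsig2 and Scgb1b3 had moved more in the earlier step. Vsig2 rose by 0.91 from 3 to 9 months against 0.44 from 9 to 15 months (adjusted p of the difference = 0.00959), and Scgb1b3 by 2.39 against 0.67 (adjusted p = 5.67e-06). Pex5l and Rps4l fell by 2.06 and 2.37 in the earlier step and by 1.03 and 1.09 in this one (adjusted p of the differences = 0.0199 and 0.00694). After 15 months both stopped falling, with changes of 0.03 and 0.04 to 24 months, a difference that also passed the test (adjusted p = 0.0313 for each). Bmp3 had log2 changes of -0.11, -0.45 and 0.18 over the 3 steps, and the difference between the later pair passed the test (adjusted p = 0.0754). Ceacam10, Ptpro and Prss23, picked after their values were seen, also differed between these steps. Ptpro, a receptor tyrosine phosphatase, rose by 0.53 and had a change of -0.41 afterwards (adjusted p of the difference = 0.0259), Ceacam10 rose by 0.34 and had one of -0.26 (adjusted p = 0.0157), and Prss23 fell by 0.41 and had one of 0.32 (adjusted p = 0.0355).

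**Figure D4:**
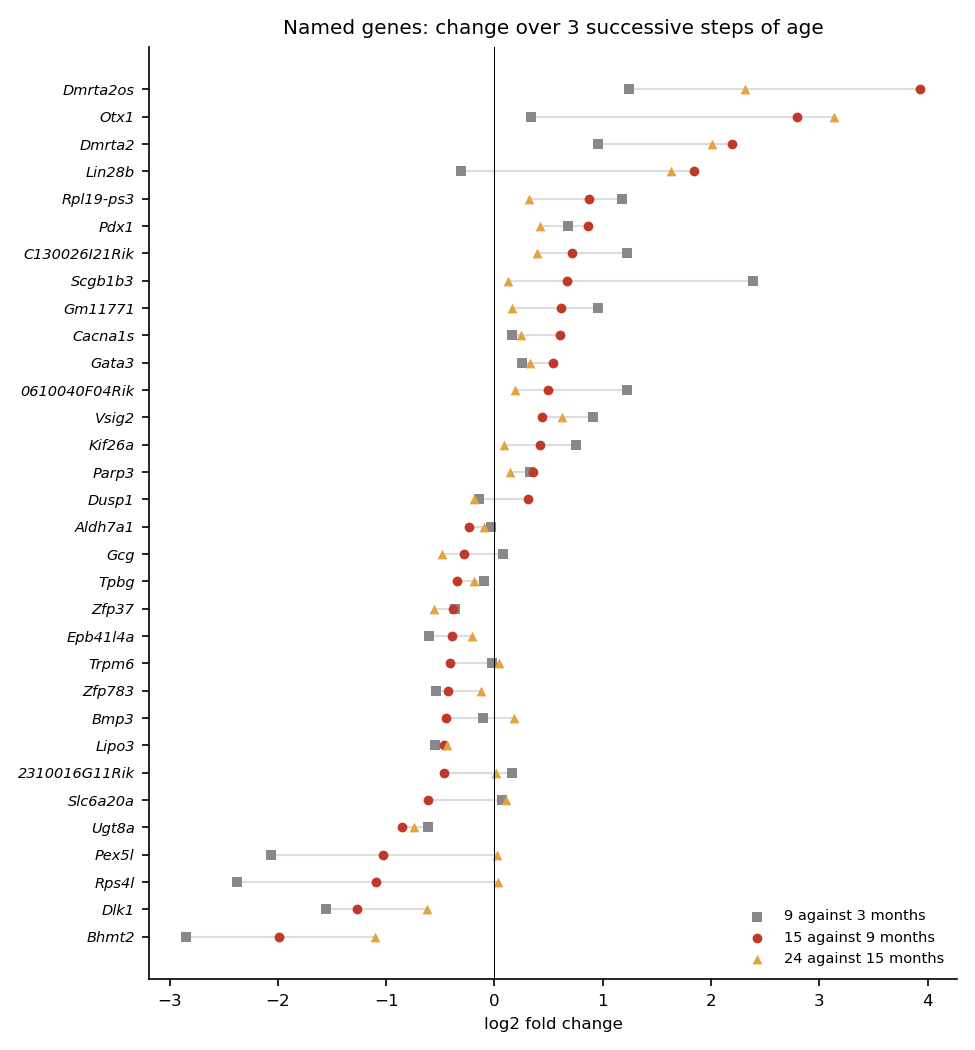
Log2 change (horizontal axis) of the 32 genes named by rule in the steps from 3 to 9, from 9 to 15 and from 15 to 24 months, 1 point per step and gene. Pex5l and Rps4l lie near 0 in the last step, and Dmrta2 is above 0 in all 3.

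Most listed genes of the tissue were level, but a smaller share of them than of all tested genes. Over 54 lists of cell type markers and pathways, chosen for the colon, 661 of 707 genes could be tested, 2 were called (Dusp1 and Gcg) and 510 (77.2%) were level, beside 0.431% called and 86.7% level over all tested genes. No gene was called in 52 of the 54 lists, which is no trait of the lists, since calls were as rare over all tested genes. The median change of a list ran from -0.29 for adipocytes to 0.44 for immunoglobulin constant genes, against 0.01 over all tested genes.

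The epithelium kept its levels in most lists. All 6 tested markers of intestinal stem cells were level, with a median change of -0.07 and 2 of 6 below an unadjusted p of 0.05. Among these 6 the changes ran from -0.20 for Lgr5 to 0.03 for Smoc2, with Rnf43 at -0.12 (95% interval -0.23 to -0.0067). All 18 tested crypt Wnt targets were level, 2 of them below an unadjusted p of 0.05. Ephb2, a receptor that positions cells along the crypt, was at -0.0026 (95% interval -0.10 to 0.09). All 15 genes of cycling cells were level, with Mki67, a marker of proliferation, at 198 ± 22.1 CPM and 184 ± 21.8 CPM (SD, n = 16 each), a change of -0.10 (95% interval -0.25 to 0.05). For colonocytes 9 of 10 were level, with the carbonic anhydrase Car1 at -0.16 (95% interval -0.36 to 0.03). The exception was Slc37a2, a sugar phosphate transporter, at -0.84 with a wide 95% interval of -1.79 to 0.11 (adjusted p = 0.603). Of the goblet cell genes 7 of 8 were level, with the mucin Muc2 at -0.06 (95% interval -0.18 to 0.07). Clca1, a secreted mucus protease, was the exception among goblet genes at 0.32 (95% interval -0.05 to 0.70). Tuft cell genes were all level (6 of 6). Among intestinal identity factors 17 of 19 were level, with Hnf4a at 0.02 (95% interval -0.07 to 0.11). The exceptions were Gata4, a factor of the proximal intestine, at 0.67 (adjusted p = 0.260), and Ehf, one of the genes too near to no change for an error. All 18 tested anterior and middle Hox genes were level, and 9 of 11 posterior ones, with Hoxb13 and Hoxd13 as the exceptions at 0.19 and -0.18.

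Lists of the wall and stroma were level in most genes. All 9 smooth muscle genes were level, although 3 mice of 9 months were low in them, with Myh11, the smooth muscle myosin, at 0.03 (95% interval -0.27 to 0.32). The same held for all 3 genes of interstitial cells of Cajal, all 10 of enteric neurons, all 6 of enteric glia, and all 7 and 5 of blood and lymphatic endothelium. PDGFRA+ interstitial cell and fibroblast genes were level in 7 of 8, collagens in 19 of 22 and matrix remodelling genes in 19 of 22. The collagen exceptions were Col6a5 at 0.42 (adjusted p = 0.126), Col8a1 at -0.45 (adjusted p = 0.271) and Col11a1 at -0.14, and those of matrix remodelling were Mmp3, Mmp9 and Mmp13. Col3a1, a fibrillar collagen, had a log2 change of -0.06 (95% interval -0.26 to 0.15).

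Immune and metabolic lists had no further calls, but differed in how many genes were level. Macrophages (8 of 8), T cells (9 of 9) and MHC class I with the immunoproteasome (16 of 16) were level, with B2m, the light chain of MHC class I, at -0.0043 (95% interval -0.15 to 0.14). Fewer were level among interferon-stimulated genes (16 of 24), chemokines and their receptors (21 of 32), MHC class II (8 of 11), germinal centre genes (6 of 17) and the epithelial response to bacteria (6 of 11, with 3 below an unadjusted p of 0.05 and a median change of 0.20). Synthesis of cholesterol and fatty acids was level in 26 of 27 genes. Xenobiotic metabolism was level in 21 of 25, with 7 below an unadjusted p of 0.05 and a median change of -0.07, and colonic ion and water transport in 20 of 24, with 5 below an unadjusted p of 0.05. The list of senescence and p53 response was level in 18 of 20, with the cell cycle inhibitor Cdkn1a at -0.16 (95% interval -0.27 to -0.05, adjusted p = 0.275). A list of 52 genes, mostly from the protein network of the study, had 50 tested, none called and 44 level, with a median change of 0.02. The study chose those genes on these samples, so their direction is not independent evidence, and the list does not hold Dmrta2, which the study also names and which was called.

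For other lists the data could not tell level from changed in many or all of the genes. None of 8 B cell genes, 5 mesothelial genes or 5 tested mast cell genes was level, and 1 of 7 adipocyte and 1 of 5 tested neutrophil genes was. The summed adipocyte level ran from 22.4 to 236 CPM at 9 months and from 21.6 to 150 CPM at 15 months, and that of B cells from 12.04 to 92.9 CPM and from 14.7 to 86.1 CPM. Antimicrobial proteins and lectins were level in 6 of 18 genes, clock genes in 12 of 20 and heat shock chaperones in 11 of 17, with none called. Their intervals passed the limit of 0.5 on at least one side.

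**Figure D5:**
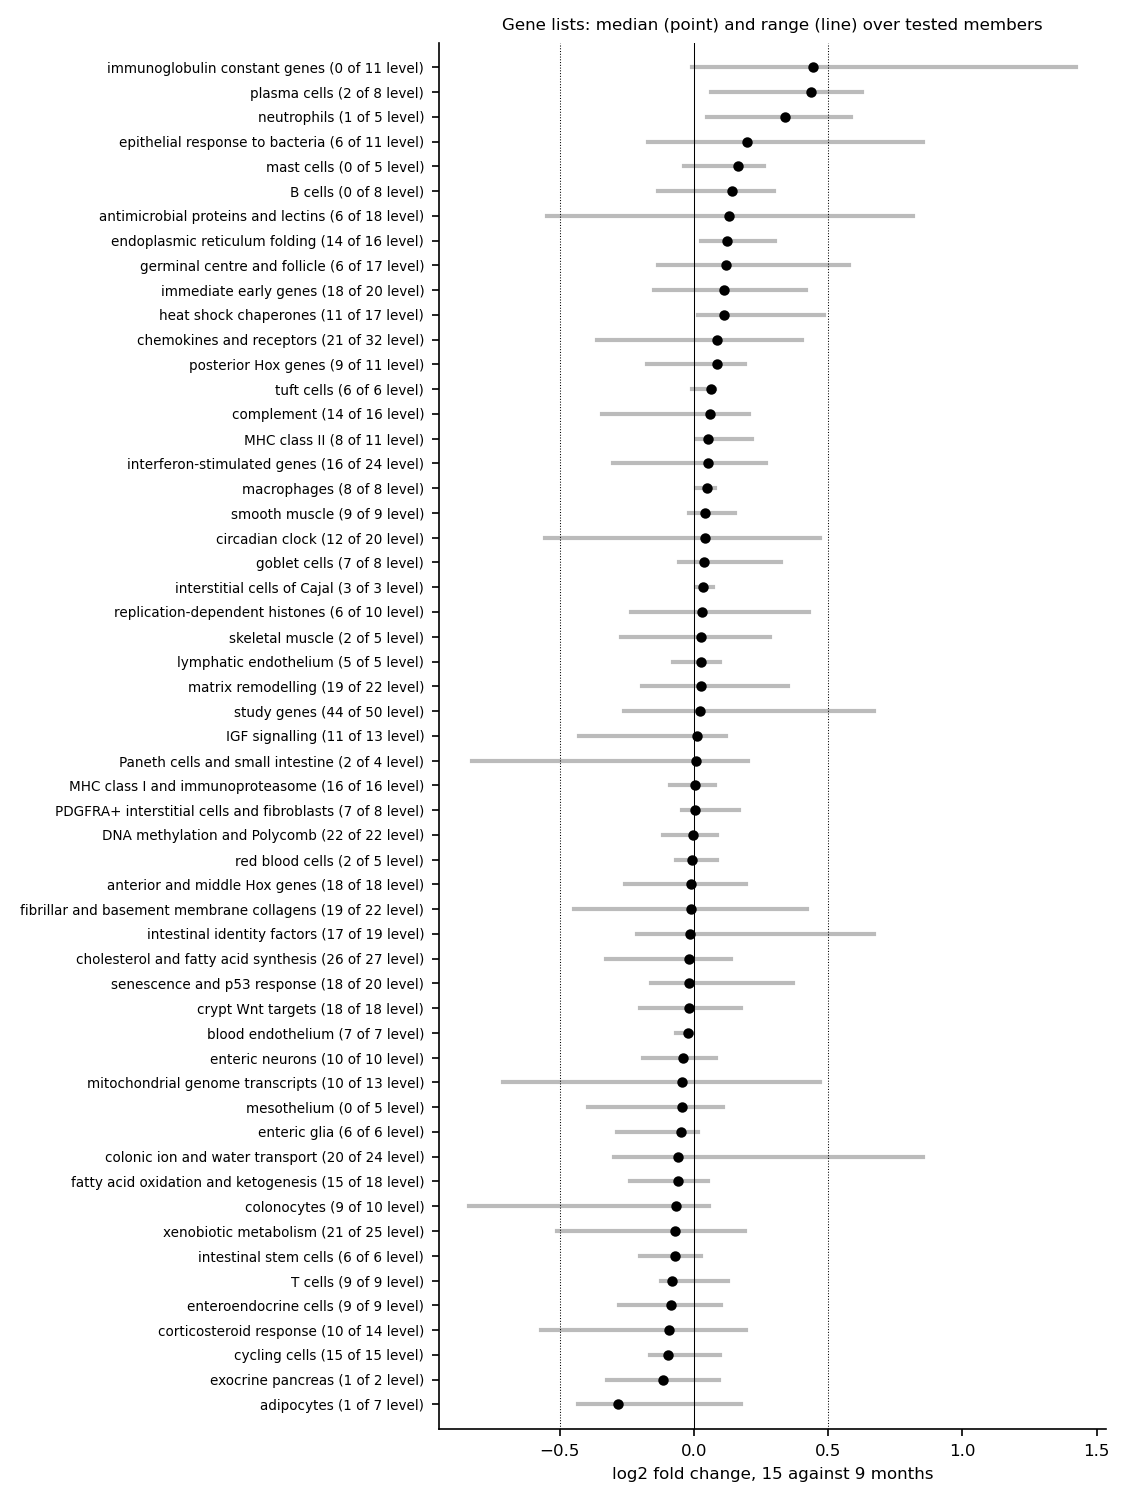
Log2 change from 9 to 15 months for each gene list: the point is the median and the line the range over its tested members, with the number of level genes written beside it. The medians of 13 of the lists lie beyond 0.1 in size, and the immunoglobulin constant and plasma cell lists lie furthest to the right.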

How the data were processed

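RNA-seq counts of colon tissue from 83 male mice were analysed, 32 of them aged 9 or 15 months. According to the methods and the submitters' processing notes, paired reads of stranded polyA libraries were trimmed by cutadapt 2.8, passed through a PrinSeq Lite quality filter, mapped by HISAT2 2.1.0 to GRCm38, reduced to unique alignments by SAMtools 1.9 and counted as proper pairs per gene and strand by featureCounts of Subread 2.0.1. The values deposited by the authors are raw counts of read pairs per gene and mouse, not normalized and not pooled. Unique mapping leaves genes with near-identical copies undercounted or uncertain. The table listed 37764 genes. Names and positions were taken from GENCODE M21 (GRCm38), in which 37652 were found, and promoter sequences from RefSeq (GRCm38.p6).

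Genes were filtered with filterByExpr by age, which kept 18325, and normalized by TMM. A quasi-likelihood model was fitted to all 83 mice, with terms for age and library batch (edgeR 4.0.16, R 4.3.3), and p-values were adjusted by Benjamini-Hochberg over all tested genes, with a threshold of 0.1 as the methods use. The 95% interval was the log2 change plus or minus the t quantile times its standard error. The changes within batches came from a model with a group for each age and batch. Between 25983591 and 56630493 pairs were counted per mouse of 9 or 15 months, and in each of 240 same-age pairs of these mice the difference was larger than counting noise (median ratio 35.6). Counting intervals are exact and cover counting error only.

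The members and gene lists were chosen with earlier results of these data known. The named genes were, among called genes with the same direction in all 3 batches, the 10 with the smallest adjusted p in each direction, then the 5 with the largest change at a mean of at least 1 CPM, with immunoglobulin and T cell receptor segments apart, every called list member, and the 3 most abundant members of each list as examples. The group of developmental regulators was made after their values were seen. Alternatives were DESeq2 1.42.0, DESeq2's size factors, no filter, at least 10 counts in every mouse, only 9 and 15 months, no batch term, covariates for smooth muscle and B cell markers, a block for the replicate number, a threshold of 0.05 and each mouse left out. A further pair, without 4 or 2 mice that stood apart, were added after seeing the data. Summaries and plots used Python 3.11.15, numpy 2.4.6, pandas 2.3.3, scipy 1.17.1 and matplotlib 3.10.9.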

Additional observations from a re-analysis of the deposited data

Results flagged for a closer look

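A difference between neighbouring steps of age was tested for each named gene in the same edgeR model, and 12 such differences passed an adjusted p of 0.1 (log2 scale). Over all tested genes 0.622% passed for the earlier difference and 0.955% for the later one. The named genes were chosen by their change from 9 to 15 months, which is part of each difference, and the steps share mice, so the count is a description. For the change from 9 to 15 months minus the change from 3 to 9 months, the value was 1.24 for Dmrta2 (adjusted p = 0.0108), with a rise in both steps that was larger in the later one. It was 1.03 for Pex5l (0.0199) and 1.28 for Rps4l (0.00694), which fell in both steps and fell less in the later one. It was -0.46 for Vsig2 (0.00959), -0.74 for 0610040F04Rik (0.0214) and -1.72 for Scgb1b3 (5.67e-06), which rose in both steps and rose less in the later one. For 2310016G11Rik it was -0.63 (0.0993), with a change of 0.16 before 9 months and of -0.47 after.

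For the change from 15 to 24 months minus the change from 9 to 15 months, the value was -1.62 for Dmrta2os (adjusted p = 0.0916), whose fitted change rests on 5 read pairs at 9 months. It was 1.06 for Pex5l (0.0313) and 1.13 for Rps4l (0.0313), whose levels stopped falling, 0.62 for Bmp3 (0.0754), which had fallen, and -0.50 for Dusp1 (0.0830), which had risen. No cause was tested for any of these. Groups of 16 mice are too large for the test of single outlying samples, which was not run.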

How the results depend on the processing

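The called genes kept their sign in each alternative in which they were tested, which were all 79 except with at least 10 counts in every mouse (63), with only the mice of 9 and 15 months (71) and with DESeq2, which gave an adjusted p for 77. The count of 79 (46 higher, 33 lower) was 117 with DESeq2 (60 higher, 57 lower), 115 with covariates for smooth muscle and B cell markers, 93 with only the mice of 9 and 15 months, 89 without the batch term, 81 with DESeq2's size factors, 74 with no filter, 64 with at least 10 counts in every mouse and 56 at an adjusted p below 0.05 (38 higher, 18 lower). Of the 79, 53 were called in each of these fits at 0.1, the block below included, in which they were tested. Leaving out 1 mouse at a time gave 51 to 136 called genes, 32 to 69 higher and 18 to 67 lower. The total moved by over 1.5 times without replicate 5 of 9 months (136) and without replicates 1 (51), 5 (52) and 9 (119) of 15 months, and the lower genes also without replicates 8 (55) and 16 (18) of 9 months. Without the 4 mice that stood apart 57 were called (34 higher, 23 lower). Without the 2 mice highest in plasma cell markers 39 were called (25 higher, 14 lower), all among the 79. The cause was not tested.

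The replicate numbers did not pair the mice: the deviations of same-numbered mice correlated by -0.226 to 0.239, 3 of 16 pairs were over 0.1, and 2 mice correlated best with their own number. With the replicate block 61 genes were called (35 higher, 26 lower), 60 of them among the 79. The median change of plasma cell markers was 0.43 in 3 further fits and 0.16 without the 2 mice highest in them.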

Other observations

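Several listed genes missed the threshold with unadjusted intervals away from 0. Sis, the sucrase-isomaltase of the small intestine, had a log2 change of -0.83 (95% interval -1.30 to -0.35, adjusted p = 0.140 by edgeR), from 12.7 ± 3.18 to 7.32 ± 3.28 CPM (SD, n = 16 each). Erbb3, a receptor of the EGF family, had one of -0.29 (adjusted p = 0.152). Duox2, the oxidase with which the epithelium answers bacteria, had a log2 change of 0.41 (95% interval 0.14 to 0.68, adjusted p = 0.236).

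Some genes outside the named ones changed before or after this interval and had a tested difference to it, and were picked after their values were seen. The secretoglobin Scgb2b20 had log2 changes of 2.67 from 3 to 9 months and of 0.48 from 9 to 15 months (adjusted p of the difference = 5.67e-06). Mirg, a non-coding transcript of the imprinted Dlk1 region, had changes of -1.56 and then -0.33 (adjusted p of the difference = 0.00746). Irx2, a homeobox factor, had a change of 0.50 from 9 to 15 months and of 2.30 from 15 to 24 months (adjusted p of the difference = 0.0157). Mmp12, the macrophage elastase, had changes of 0.28 and then 2.16 (adjusted p of the difference = 0.00663).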
